A study of Mus musculus with 13 samples.

Results

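The genes described here are the interferon response gene families of mouse muscle. They were chosen by symbol alone, with no measured value: Ifit, Ifitm, Oas and Gbp genes, Irf genes, Irgm1 and Irgm2, Stat genes of the interferon pathway, Isg15, Isg20, Mx1 and Mx2, Rsad2, Usp18, the Ifi27, Ifi35 and Ifi44 genes, Ifih1, Ddx58, Zbp1 and Bst2. Such a symbol was carried by 57 of the 17924 genes left by the study's own filter on low expression. Of these 57, 55 passed a further filter, which asked for 3 or more libraries with a normalized count no lower than 10. Gbp8 and Oasl1 did not pass it. Another 10 annotated genes with matching symbols, among them Oas1c, Oas1d, Ifitm5, Ifitm7 and Gbp11, are not analysed here. Isg20l2, a nucleolar exonuclease, and Ifitm10 entered by the start of their names.

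The RNA came from whole muscles of *mdm* mice, which carry a LINE repeat insertion in the titin gene, Ttn, on the mixed background B6C3Fe a/a-Ttn mdm/J. There were 5 libraries of the extensor digitorum longus (EDL) and 5 of the psoas, both fast muscles, and 3 of the slow soleus. The labels name no treatment. The ages of the mice were 38, 38, 42, 38 and 38 days for EDL replicates 1 to 5, 29, 38, 42, 38 and 38 days for psoas replicates 1 to 5, and 33, 36 and 38 days for soleus replicates 1 to 3. Every group carries the mutation and wild-type muscle is not analysed here, so no value below is a difference between genotypes. The summed normalized count of 4 slow-fibre genes (Myh7, Tnnt1, Tnni1 and Atp2a2) was 217500 to 320000 in soleus, 9641 to 42930 in EDL and 14410 to 58100 in psoas, in the order the muscle labels give. Total counts ran from 9114176 to 48835209 per library, and the 57 genes together took 0.0254% to 0.122% of them. The labels also carry unexplained codes: T1 for EDL replicate 1, T3 for psoas replicate 1, T4 for EDL 2, psoas 2, soleus 1 and soleus 2, T5 for EDL 3 and psoas 3, and T6 for EDL 4, EDL 5, psoas 4, psoas 5 and soleus 3. The 4 libraries labelled male were those of code T4 and the 2 labelled female those of T5, so sex and code cannot be told apart. By the RNA integrity numbers the study reports, no psoas library was above any EDL library. RNA quality and muscle therefore cannot be told apart between psoas and EDL.

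Interferons are secreted proteins that cells release on sensing foreign or misplaced nucleic acid. Binding of type I interferon to its receptor activates the kinases Jak1 and Tyk2, which phosphorylate Stat proteins. Together with Irf9 these form a complex that binds an interferon-stimulated response element in the promoters of many genes, whereas interferon gamma acts mainly on gamma-activated sites. The products range from sensors and transcription factors, which feed back on the response, to proteins that degrade or trap viral RNA and particles. In muscle this program is best known from inflammatory myopathies, dermatomyositis above all, and from regeneration.

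The 2 kinds of element were looked for as plain letters in the RefSeq promoter windows of GRCm38.p6, which hold 250 bases before and 50 after a start site. At least 1 window was found for 42 of the 57 genes, and Usp18, Mx1, Mx2, Oas2 and Zbp1 were among the 15 without one. The core of the response element, written as GAAA, any 2 bases and GAAA again, was searched on both strands and stood in the windows of 24 of these 42 genes (57.1%), against 3.99% of 27025 genes. TTCNNNGAA, the palindromic core of the gamma-activated site, stood in 13 of them (31.0%), against 9.55% of all genes, and both letter strings may overlap others. By family the paired GAAA was present in 7 of 7 Gbp and Irgm genes with a window, 5 of 6 Ifit, 3 of 5 Oas, 3 of 6 Ifitm and Bst2, 2 of 9 transcription factors and 0 of 3 Ifi35 and Ifi44 genes. The windows of the following 5 genes are shown because they span what was found. They are a similar pair (Ifit3 and Ifit3b), overlapping copies (Isg15), and the 2 genes with the smallest adjusted p between psoas and EDL. Of these 2 genes, 1 has the letters (Rsad2) and 1 has not (Oasl2). Each line gives the 200 bases before the start site, 5′ to 3′ on the gene's strand, with every match of the paired GAAA or of its reverse complement in capitals.
Ifit3, chr19:34583329-34583528, forward strand: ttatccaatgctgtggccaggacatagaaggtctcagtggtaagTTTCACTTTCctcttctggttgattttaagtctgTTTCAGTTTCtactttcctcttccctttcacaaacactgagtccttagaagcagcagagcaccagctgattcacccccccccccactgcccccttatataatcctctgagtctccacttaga
Ifit3b, chr19:34607757-34607956, forward strand: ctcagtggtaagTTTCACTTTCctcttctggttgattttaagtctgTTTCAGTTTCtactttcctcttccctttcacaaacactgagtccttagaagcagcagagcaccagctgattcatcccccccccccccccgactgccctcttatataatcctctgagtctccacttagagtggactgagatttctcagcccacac
Isg15, chr4:156200819-156201018, reverse strand: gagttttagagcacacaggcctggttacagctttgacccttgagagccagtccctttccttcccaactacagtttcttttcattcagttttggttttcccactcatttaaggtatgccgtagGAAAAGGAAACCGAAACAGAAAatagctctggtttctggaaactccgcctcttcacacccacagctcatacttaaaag
Rsad2, chr12:26456453-26456652, reverse strand: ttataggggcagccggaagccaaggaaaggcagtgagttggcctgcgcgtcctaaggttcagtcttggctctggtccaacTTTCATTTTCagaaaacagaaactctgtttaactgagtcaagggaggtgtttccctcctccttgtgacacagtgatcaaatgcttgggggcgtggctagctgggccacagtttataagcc
Oasl2, chr5:114896734-114896933, forward strand: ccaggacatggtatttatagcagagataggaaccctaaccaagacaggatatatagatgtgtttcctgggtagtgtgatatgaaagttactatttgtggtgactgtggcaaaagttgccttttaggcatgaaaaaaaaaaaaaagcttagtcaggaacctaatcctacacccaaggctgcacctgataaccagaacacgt

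In Ifit3 the matches began 156 and 122 bases before the start site, and in Ifit3b 188 and 154 bases before it. With the first matches laid on each other and no gaps allowed, 138 of 168 bases of the 2 windows were identical (82.1%). A run of C differs in length between the windows, so the bases after it were compared out of register and the share is too low. Isg15 had 3 overlapping matches, which began 78, 72 and 66 bases before the start site, and Rsad2 had 1 at 120 bases. The window of Oasl2 held no match, which says only that these letters are not in it. Among the tested genes, the median log2 fold change between psoas and EDL was 0.82 for the 24 with the paired GAAA and 0.60 for the 17 without it, given here as a description.

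Most interferon family genes had a higher fitted level in psoas than in EDL of *mdm* mice, though between the libraries of replicate numbers 1 and 4 only 27 and 29 of the 55 were higher in psoas, and no gene passed the limits used by the study, a change of more than 1 on the log2 scale with an adjusted p below 0.01. Of the 55 genes tested, 51 had a log2 fold change above 0 between psoas and EDL, against 51.3% of all 17069 genes tested. Their median was 0.74, against 0.02 for all genes. edgeR's quasi-likelihood test called 0 of the 55 genes, where it called 4.93% of all genes in either direction. At an unadjusted p under 0.05, 22 of the 55 genes were higher in psoas, against 16.6% of all genes, and 1 was lower, against 16.7%. At an adjusted p under 0.05 with no limit on the fold, 5 of the 55 were higher, against 9.06% of all genes: Rsad2, Oasl2, Irf7, Ifih1 and Ifitm3. limma called 0, against 5.79% of all genes, and DESeq2 called 3, Rsad2, Oasl2 and Irf7, against 9.29%.

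Psoas replicate 2 had the highest normalized count of all 13 libraries for 23 of the 55 genes, where it was highest for 9.16% of all genes, and EDL replicate 3 had the lowest for 22 of them, where it was lowest for 16.8% of all genes. Without psoas replicate 2, 47 of the 55 genes still had a log2 fold change above 0, but the median was 0.55, and 7 were higher at an unadjusted p under 0.05, against 14.2% of all genes. Without EDL replicate 3 the values were 47 genes, 0.61 and 12 genes, the last against 14.3% of all genes. The share of all genes called also fell without psoas replicate 2, from 4.93% to 2.14%. Without psoas replicate 2, Rsad2 alone of the 5 genes kept an adjusted p under 0.05 (0.0285, edgeR). The log2 fold changes of Ifih1 and Ifitm3 were then 0.62 and 0.47, against 0.68 and 0.50 with it. Gbp10 and Gbp6, both lower in psoas, then had an adjusted p under 0.05, as had 10.9% of all genes (0.0258 and 0.0329).

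**Figure D1:**
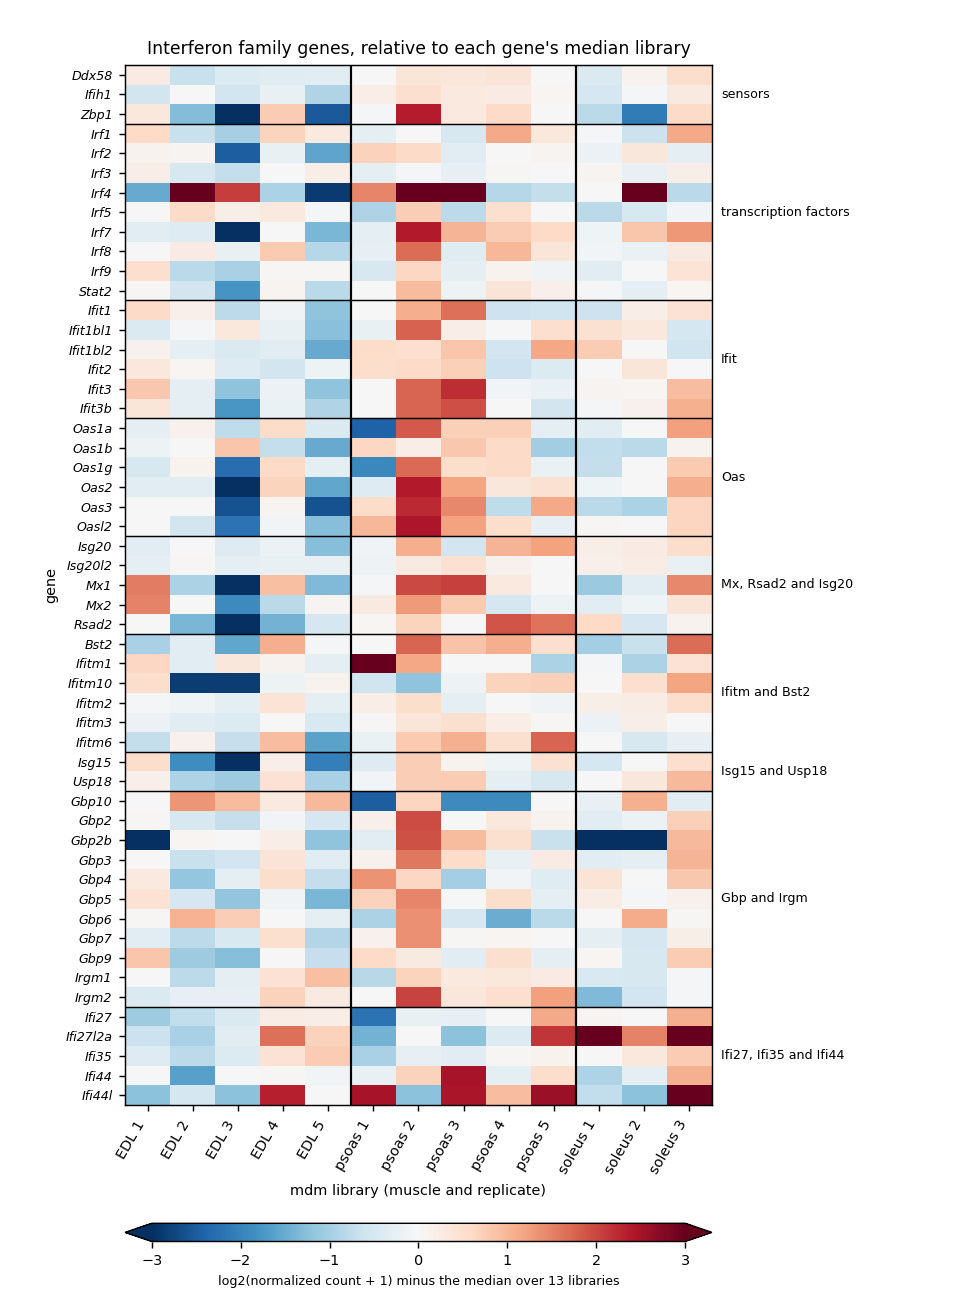
Each row is 1 of 53 of the 55 genes tested, grouped by family, and each column 1 *mdm* library. The colour gives the log2 of the normalized count plus 1 minus the median of that gene over the 13 libraries, on a scale that saturates at 3 in both directions. Over all 55 genes, psoas replicate 2 is above the gene's median for 47 and EDL replicate 3 for 7.

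The cytoplasmic sensors start the response. Ifih1 encodes MDA5 and Ddx58 RIG-I, which recognize double-stranded RNA, and Zbp1 binds nucleic acid in the Z form. Normalized counts of Ifih1 were 109.9, 161, 109.5, 137 and 86.6 in EDL, 185, 231, 199, 192 and 167 in psoas and 113, 156 and 196 in soleus. Every psoas library was above every EDL library, which held for only 2 of the 55 genes, Ifih1 and Ifitm3, against 6.48% of all genes. The means were 195 ± 23.2 (SD, n = 5) in psoas and 121 ± 28.9 (SD, n = 5) in EDL, a log2 fold change of 0.68 ± 0.21 (SE; edgeR, adjusted p = 0.0351), and the 3 soleus libraries spread over the range of both. Counts of Ddx58 were 212, 112, 133, 138 and 143 in EDL, 176, 229.6, 227, 233 and 179 in psoas and 133, 191 and 259.6 in soleus, with a log2 fold change between psoas and EDL of 0.50 ± 0.22 (edgeR, adjusted p = 0.122). Zbp1 was sparse, at 15.8, 4.47, 0, 21.8 and 1.35 in EDL, 12.1, 67.8, 15.6, 19.1 and 12.4 in psoas and 6.62, 2.14 and 18.9 in soleus. Its value in psoas replicate 2 was 3.11 times the next highest library, and its log2 fold change of 1.47 ± 0.79 had an adjusted p of 0.208 (edgeR).

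Stat2 and Irf9 are parts of the complex that carries the type I signal to DNA. Stat2 had normalized counts of 99.2, 65.7, 27.9, 102 and 55.5 in EDL, 97.4, 187, 87.9, 128 and 109 in psoas and 94.3, 80.7 and 101 in soleus, and Irf9 173, 69.5, 61.7, 125 and 126 in EDL, 86.6, 189, 101, 131 and 114 in psoas and 97.7, 122 and 163 in soleus. The muscles overlapped for both genes, and the log2 fold changes between psoas and EDL were 0.78 ± 0.31 and 0.16 ± 0.30 (edgeR, adjusted p = 0.0916 and 0.752).

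Irf7, the factor that amplifies type I interferon production, had the smallest adjusted p of the Irf and Stat genes between psoas and EDL. Its normalized counts were 20.9, 19.8, 1.99, 26.1 and 9.47 in EDL, 21.4, 141, 54.04, 45.2 and 39.8 in psoas and 24.00, 47.1 and 65.3 in soleus. Psoas replicates 2 to 5 were above all EDL libraries, and psoas replicate 1 lay among them. The means were 60.3 ± 46.7 (SD, n = 5) in psoas and 15.7 ± 9.73 (SD, n = 5) in EDL, and the log2 fold change was 1.88 ± 0.56 (edgeR, adjusted p = 0.0313), or 1.29 without psoas replicate 2 (adjusted p = 0.113). Irf3, its constitutive counterpart that the sensors activate without new transcription, lay between 197 and 377 in all 13 libraries, with a log2 fold change of 0.01 ± 0.19 (edgeR, adjusted p = 0.974). Irf1, which responds to interferon gamma, had 328, 138, 109.5, 349.6 and 265 in EDL, 181, 218, 155, 479 and 274 in psoas and 214, 140.0 and 483 in soleus, and its log2 fold change of 0.13 ± 0.40 had an adjusted p of 0.847 (edgeR). Irf2, Irf5 and Irf8 had log2 fold changes of 0.74, -0.17 and 0.60, and none had an unadjusted p under 0.05.

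Irf4, best known from lymphocytes, had the widest spread of the Irf and Stat genes. Its mean level per exon length over the 13 libraries was the highest of them, at 227 normalized counts per kb, but its median, 31.7, was below those of Irf3 (94.9), Irf1 (54.8) and Irf5 (39.4). Its normalized counts were 53.6, 1491, 663, 80.6 and 20.3 in EDL, 432, 3381, 5084, 85.98 and 94.5 in psoas and 156, 2811 and 87.7 in soleus, a range of 251-fold between the highest and the lowest library. The 5 highest libraries came from all 3 muscles: EDL 2 and 3, psoas 2 and 3, and soleus 2. All 4 libraries of EDL and psoas with code T6 had values under 100, as had soleus replicate 3 of that code. The log2 fold change between psoas and EDL was 1.96 ± 1.33 (edgeR, adjusted p = 0.327). With the replicate number as a block, which sets each psoas library against the EDL library of its number, it was 1.92 with an adjusted p of 0.0119 (edgeR). The libraries numbered 1 in that fit are not from 1 animal. Of the B cell genes, Ms4a1 had 5.96, 9.57, 7.96, 3.27 and 5.41 in EDL, 27.02, 57.7, 11.9, 22.6 and 50.6 in psoas and 9.52, 5.71 and 13.8 in soleus. It was highest in psoas replicate 2, the second highest library for Irf4. Psoas replicate 3, the highest library for Irf4, had the lowest Ms4a1 of the psoas libraries, and soleus replicate 2 the lowest of soleus. The part of Ms4a1 in the spread of Irf4 was not tested.

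**Figure D2:**
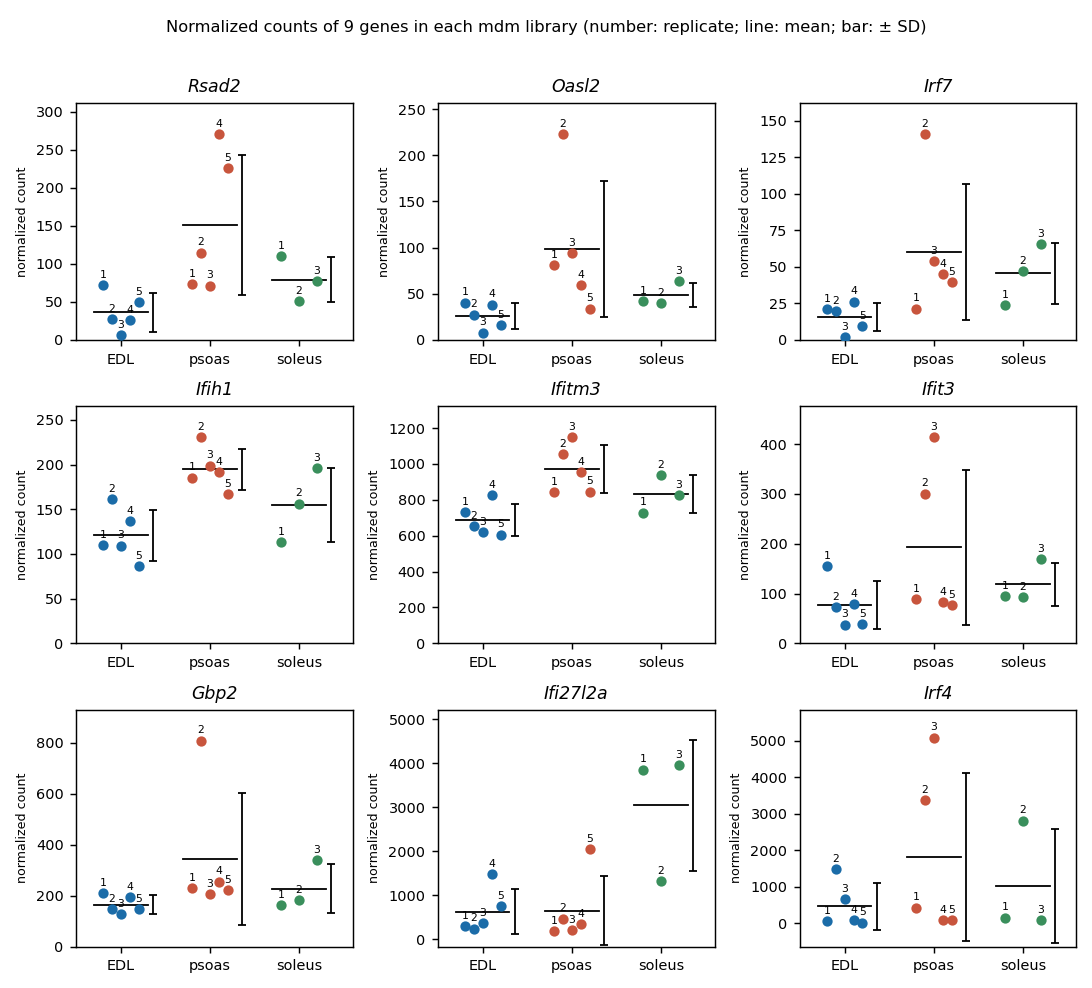
Each panel shows the normalized count of 1 gene (vertical axis, linear) in the EDL, psoas and soleus libraries, with the replicate number above each point, the mean as a line and the SD as a bar. For Ifih1 and Ifitm3 all psoas points lie above all EDL points, for Gbp2 and Irf7 psoas replicate 2 stands alone, and for Ifi27l2a the soleus points include the 2 highest.

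The Ifit proteins bind viral RNA by its 5′ end and hinder its translation. All 6 Ifit genes had a log2 fold change above 0 between psoas and EDL, against 51.3% of all genes. Their values ran from 0.36 to 1.37 with a median of 1.04. At an unadjusted p under 0.05, 3 were higher, against 16.6% of all genes. Ifit3 had the highest mean per exon length over all libraries, 75.0 normalized counts per kb, though in EDL Ifit2 had 45.9 and Ifit3 43.8. The normalized counts of Ifit3 were 155, 73.4, 37.8, 78.4 and 37.9 in EDL, 88.5, 301, 414, 83.4 and 77.1 in psoas and 94.3, 92.1 and 168 in soleus. Psoas 2 and 3 were the 2 highest libraries, while psoas 1, 4 and 5 lay within the range of EDL. The log2 fold change was 1.30 ± 0.52 (edgeR, adjusted p = 0.0937). Ifit1 was also highest in psoas 2 and 3, at 72.4, 54.2, 27.9, 44.6 and 20.3 in EDL, 48.5, 104, 155, 31.3 and 31.5 in psoas and 31.04, 55.7 and 65.3 in soleus, with a log2 fold change of 0.72 ± 0.47 (edgeR, adjusted p = 0.307). Psoas replicate 3 was the highest library for Ifit1, Ifit2, Ifit3 and Ifit3b. Ifit3 shares 41.1% of its 75-base stretches with Ifit3b, so the split of reads between the pair is uncertain.

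The Oas enzymes make 2′-5′ oligoadenylate, which activates RNase L. The 6 Oas genes tested all had a log2 fold change above 0 between psoas and EDL, against 51.3% of all genes. Their values ran from 0.54 to 1.87 with a median of 1.22. Oasl2, an Oas-like relative, had normalized counts of 40.5, 27.4, 7.96, 38.1 and 16.2 in EDL, 81.05, 223, 94.3, 59.1 and 33.98 in psoas and 41.8, 39.99 and 63.6 in soleus. Psoas 1 to 4 were above every EDL library and psoas 5 lay among them. The means were 98.3 ± 73.5 (SD, n = 5) in psoas and 26.04 ± 13.9 (SD, n = 5) in EDL, and the log2 fold change was 1.87 ± 0.48 (edgeR, adjusted p = 0.0176), and 1.33 without psoas replicate 2 (adjusted p = 0.0575). Oas1a, the most abundant Oas gene per exon length, had 20.01, 26.8, 13.9, 35.9 and 17.6 in EDL, 3.73, 89.2, 40.3, 40.8 and 19.9 in psoas and 19.04, 24.3 and 58.5 in soleus, with a log2 fold change of 0.75 ± 0.60 (edgeR, adjusted p = 0.412). It shares 47.6% of its 75-base stretches with Oas1g, and both were lowest or close to lowest in psoas replicate 1 and highest in psoas replicate 2. Oas3 was near the limit of detection, at 5.11, 5.104, 0, 5.45 and 0 in EDL, 7.92, 27.8, 15.6, 2.61 and 12.4 in psoas and 2.48, 2.14 and 8.597 in soleus, with a log2 fold change of 1.87 ± 0.73 (edgeR, adjusted p = 0.089), and a count of 0 in EDL 3 and 5 allows up to 3 counts. Oasl1, not tested, lay between 0 and 20.3.

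Rsad2 encodes viperin, which makes a nucleotide that stops viral RNA synthesis. It had the largest log2 fold change among the 55 genes between psoas and EDL, 2.01 ± 0.51 (edgeR, adjusted p = 0.0167). Normalized counts were 71.96, 27.4, 5.97, 26.1 and 50.04 in EDL, 73.6, 115, 71.4, 271 and 226 in psoas and 110.1, 50.7 and 77.4 in soleus. The highest libraries were psoas 4 and 5, not psoas 2, and the value without psoas replicate 2 was 2.09. EDL replicate 1 was narrowly above psoas 3, so the groups overlapped. Within the label codes psoas was above EDL by 2.03 in T4, 3.38 in T5 and 2.74 in T6 on the log2 scale. T4 and T5 hold 1 library of each of these muscles, and T6 holds 2. With the code as a block edgeR gave a log2 fold change of 2.65 and an adjusted p of 0.00174. Rsad2 was the 1 gene of the 55 that this fit called, against 6.48% of all genes.

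Mx1, the antiviral GTPase, had normalized counts of 25.97, 3.83, 0, 16.3 and 2.71 in EDL, 7.92, 35.8, 37.5, 10.4 and 8.29 in psoas and 3.31, 6.43 and 24.1 in soleus. Its log2 fold change between psoas and EDL was 0.92 ± 0.79 (edgeR, adjusted p = 0.45), and the ranges of all 3 muscles overlapped. Mx2 had a log2 fold change of 0.22 ± 0.56 (edgeR, adjusted p = 0.812). Isg20, an exonuclease that degrades single-stranded RNA, had 16.6, 21.1, 15.9, 18.5 and 8.12 in EDL, 19.6, 45.9, 13.7, 43.4 and 49.7 in psoas and 24.00, 25.00 and 30.9 in soleus, with a log2 fold change of 1.08 ± 0.39 (edgeR, adjusted p = 0.0687). Isg20l2 was the steadiest of the 57 genes, at 184, 228, 183, 189.5 and 191 in EDL, 199, 268, 305, 243 and 221 in psoas and 245, 258 and 189 in soleus, a range of 1.66-fold over all libraries.

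Ifitm proteins sit in membranes and block the fusion of entering viruses, and Bst2, or tetherin, holds budding particles at the cell surface. Ifitm3 had 732, 655, 619, 827 and 606 in EDL, 845, 1055, 1149, 955 and 846 in psoas and 728, 939.8 and 825 in soleus. All psoas libraries were above all EDL libraries, though psoas 1 exceeded EDL 4 only narrowly. The means were 969.9 ± 133 (SD, n = 5) and 688 ± 91.8 (SD, n = 5), a log2 fold change of 0.50 ± 0.16 (edgeR, adjusted p = 0.0401). Ifitm2, whose level per exon length was close to that of Ifitm3, lay between 595 and 1061, with a log2 fold change of 0.14 ± 0.19 (edgeR, adjusted p = 0.643), and shares 42.0% of its 75-base stretches with other annotated genes. Bst2 had 30.7, 49.1, 19.9, 131 and 59.5 in EDL, 61.02, 208, 112, 132 and 87.03 in psoas and 29.8, 37.9 and 198 in soleus, with a log2 fold change of 1.05 ± 0.56 (edgeR, adjusted p = 0.206). Ifitm1 was set by 1 library, at 31.5, 15.9, 25.9, 21.8 and 16.2 in EDL, 206, 46.5, 20.1, 19.98 and 9.95 in psoas and 19.4, 9.998 and 27.5 in soleus, where psoas replicate 1 held 206. Ifitm6, known from myeloid cells, had 5.96, 11.5, 5.97, 20.7 and 2.71 in EDL, 8.85, 18.7, 22.9, 14.8 and 37.3 in psoas and 10.3, 7.14 and 8.597 in soleus, with a log2 fold change of 1.10 ± 0.51 (edgeR, adjusted p = 0.146).

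Isg15 encodes a ubiquitin-like protein, and Usp18 the protease that removes it from its targets and also restrains the interferon receptor. Isg15 was low everywhere, at 20.9, 3.19, 0, 16.3 and 2.71 in EDL, 10.7, 24.6, 15.6, 13.03 and 19.9 in psoas and 9.52, 14.3 and 20.6 in soleus. EDL 2, 3 and 5 were the 3 lowest libraries. Usp18 had 33.6, 15.3, 13.9, 41.4 and 14.9 in EDL, 28.4, 50.7, 52.2, 24.3 and 21.6 in psoas and 30.2, 38.6 and 60.2 in soleus, and the same 3 EDL libraries were lowest. The log2 fold changes between psoas and EDL were 0.85 ± 0.63 and 0.56 ± 0.40 (edgeR, adjusted p = 0.374 and 0.352).

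Gbp and Irgm proteins are GTPases, induced above all by interferon gamma, that attack the vacuoles of intracellular pathogens. Of 11 tested, 9 had a log2 fold change above 0 between psoas and EDL, against 51.3% of all genes, and the median of the 11 was 0.74. The 2 below 0 were Gbp10 and Gbp6, which lie in the cluster on chromosome 5 with Gbp4, Gbp8 and Gbp9, while Gbp2, Gbp2b, Gbp3, Gbp5 and Gbp7 lie on chromosome 3. Gbp2 had the highest mean per exon length over all libraries, 98.7 normalized counts per kb, though in EDL Irgm1 had 83.4 and Gbp2 65.7. The normalized counts of Gbp2 were 209.9, 147, 127, 196 and 146 in EDL, 229, 807, 206, 255 and 221 in psoas and 162, 181 and 339 in soleus. Psoas replicate 2 was 2.38 times the next highest library, and the log2 fold change was 1.05 ± 0.37 (edgeR, adjusted p = 0.0625). Irgm1, which guards cells against damage from the other GTPases, had 430.0, 250.1, 358, 580.5 and 803 in EDL, 239, 687, 528, 532 and 513 in psoas and 315, 306 and 416 in soleus, and a log2 fold change of 0.05 ± 0.30 (edgeR, adjusted p = 0.927). Irgm2 had 26.4, 29.99, 29.9, 58.8 and 43.3 in EDL, 35.9, 149.5, 45.8, 51.2 and 86.2 in psoas and 13.7, 23.6 and 34.4 in soleus, with a log2 fold change of 0.98 ± 0.41 (edgeR, adjusted p = 0.109).

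Gbp10 and Gbp6 had log2 fold changes below 0, unlike the other Gbp genes tested, which was noticed after their values were seen. For Gbp6 the log2 fold change between psoas and EDL was only -0.48 ± 0.50 (edgeR, adjusted p = 0.54). Its highest library was psoas replicate 2, at 222.7, and without that library the log2 fold change was -1.31. Gbp6 shares 67.3% of its 75-base stretches with other genes, Gm43302 and Gbp10 foremost, so it is not evidence separate from Gbp10. The normalized counts of Gbp10 were 114, 284, 219, 139 and 224 in EDL, 19.6, 179, 29.3, 29.5 and 112 in psoas and 98.1, 239 and 89.4 in soleus. Psoas 1, 3 and 4 were the 3 lowest libraries, and psoas 2 lay within the range of EDL. The log2 fold change between psoas and EDL was -1.41 ± 0.55 (edgeR, adjusted p = 0.0901). With the replicate number as a block, where the libraries numbered 1 are not from 1 animal, it was -1.80 (edgeR, adjusted p = 0.00666). Gbp10 was the 1 gene of the 55 that this fit called, against 7.42% of all genes. Of its 75-base stretches 77.8% are shared with other genes, Gm43302 and Gbp6 foremost, so its counts cannot be told from theirs. Gbp2b, on chromosome 3, showed a different gap. It had 0 counts in EDL replicate 1, 2 in soleus replicate 1 and 0 in soleus replicate 2, although these are among the deeper libraries with totals of 48835209, 39484945 and 22251013, and between 36 and 801 counts in the other 10 libraries. A count of 0 allows up to 3 counts, by counting error alone. It shares only 0.873% of its 75-base stretches with another gene, Gbp2.

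Ifi27, Ifi27l2a, Ifi35, Ifi44 and Ifi44l have less well defined roles. Ifi27 had 445, 558, 691, 1084 and 1066 in EDL, 199, 791, 775, 926 and 2021 in psoas and 987, 929.8 and 1933 in soleus, and Ifi35 209, 159.5, 205, 368 and 463 in EDL, 140.2, 229.6, 218, 281 and 293 in psoas and 274, 343 and 464 in soleus. Their log2 fold changes between psoas and EDL were 0.29 ± 0.45 and -0.27 ± 0.29 (edgeR, adjusted p = 0.688 and 0.559). Ifi44 had 16.2, 4.47, 15.9, 16.3 and 14.9 in EDL, 13.5, 26.2, 92.5, 13.03 and 23.2 in psoas and 7.86, 12.8 and 34.4 in soleus, with psoas replicate 3 far above the rest and a log2 fold change of 1.32 ± 0.61 (edgeR, adjusted p = 0.142). Psoas replicate 2 was below psoas replicate 5 for both Ifi27 and Ifi35, as it was for some genes of other families, Rsad2, Isg20, Ifitm6 and Irf1 among them.

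Ifi27l2a, whose human relatives are counted among the interferon signature genes, had the highest mean level per exon length over all libraries, 2569 normalized counts per kb, through its mean in soleus, 6561. Its median, 1002, was below those of Ifitm3 (1219) and Ifitm2 (1115). Its normalized counts were 298, 236, 370.3, 1471 and 748 in EDL, 172, 464, 199, 346 and 2047 in psoas and 3851, 1310 and 3953 in soleus. Soleus 1 and 3 were the 2 highest libraries, while EDL 4 and psoas 5 exceeded soleus 2. The means were 3038 ± 1497 (SD, n = 3) in soleus, 625 ± 514 (SD, n = 5) in EDL and 646 ± 792 (SD, n = 5) in psoas. The log2 fold change was 2.29 ± 0.76 between soleus and EDL (edgeR, adjusted p = 0.13) and 2.24 ± 0.76 between soleus and psoas (edgeR, adjusted p = 0.237), and neither passed. The summed normalized count of 4 adipocyte genes (Adipoq, Plin1, Cfd and Lep) was also highest in soleus, at 32380 to 61640, against 3465 to 18700 in EDL and 10060 to 21510 in psoas, and its part in the result was not tested.

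By its median fold changes the soleus lay between the other muscles. Of the 55 genes 43 had a log2 fold change above 0 between soleus and EDL, with a median of 0.38, against 47.4% and -0.03 for all genes. Between soleus and psoas 13 of the 55 were above 0, with a median of -0.43, against 47.4% and -0.03 for all genes. Without psoas replicate 2 these values were 19 genes and -0.19, against 47.7% and -0.03 for all genes. edgeR called 0 of the 55 in both comparisons, where it called 0.978% and 0.0762% of all genes. DESeq2 called 0, against 3.71% and 1% of all genes, and limma 0, against 1.27% and 0.117%. At an unadjusted p under 0.05, Irf7 and Ifi27l2a were higher in soleus than in EDL, against 7.96% of all genes. Between soleus and psoas, Ifi27l2a was higher, against 6.19% of all genes, and Irgm2 lower, against 6.48%. Irf7 had a log2 fold change of 1.45 ± 0.62 between soleus and EDL (edgeR, adjusted p = 0.273). Irgm2 had one of -1.67 ± 0.51 between soleus and psoas (edgeR, adjusted p = 0.177), and every soleus library was below every psoas library, which held for this 1 gene of the 55, against 5.19% of all genes. Against EDL, Isg20 was higher and Irf5 lower in soleus without overlap, against 5.33% and 5.72% of all genes. The comparisons share libraries, so they are not independent of each other.

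**Figure D3:**
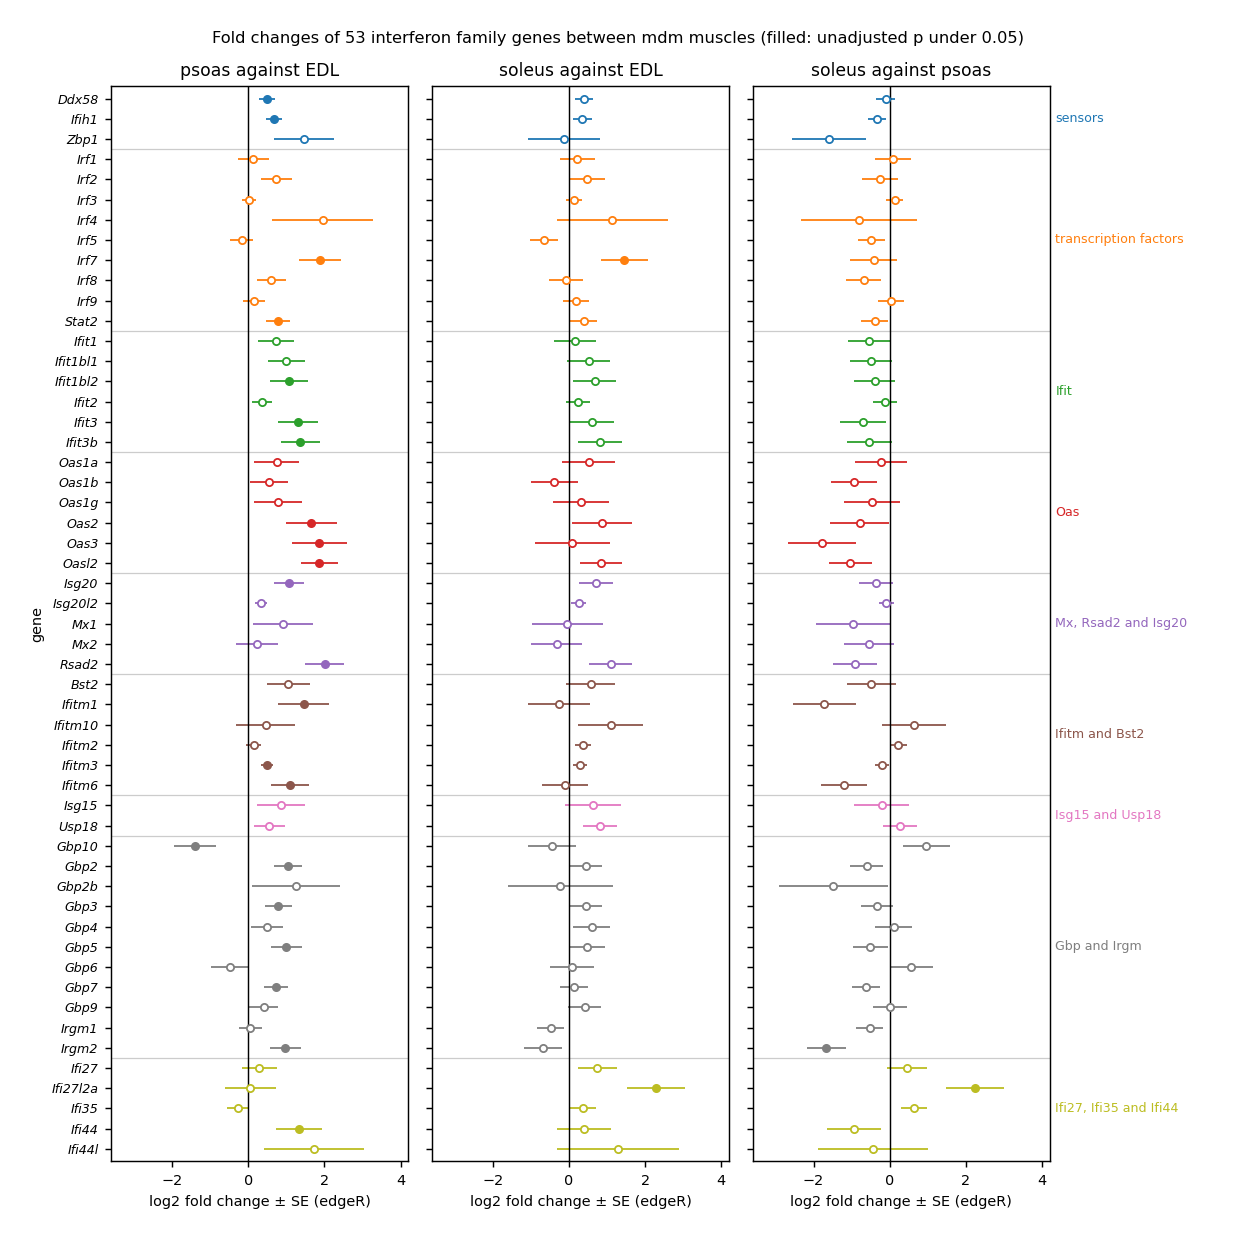
Each row is 1 of 53 of the 55 genes tested, coloured by family, and each panel 1 comparison between *mdm* muscles. The points give the log2 fold change from edgeR and the bars its SE, and filled points have an unadjusted p under 0.05. In the left panel 49 of 53 points lie above 0, in the middle panel 41 and in the right panel 13.

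The difference between psoas and EDL was uneven across libraries. Between the psoas and EDL libraries of 1 replicate number, 53 of the 55 genes were higher in psoas for replicate 2, with a median log2 difference of 1.43, 44 for replicate 3 (0.96) and 45 for replicate 5 (0.60). For replicates 1 and 4, 27 and 29 genes were higher, with medians of -0.03 and 0.01. The share of all genes higher in psoas ran from 47.2% to 54.3% over the 5 numbers. Within the label codes, the median log2 difference between psoas and EDL was 1.43 in T4, 0.96 in T5 and 0.36 in T6, with 53, 44 and 41 of the 55 genes higher in psoas. T4 and T5 hold 1 library of each of these muscles and are the pairs numbered 2 and 3 again. T6 joins numbers 4 and 5, so the codes give no separate result. Between soleus and psoas it was -1.04 in T4, where 6 genes were higher in soleus, and 0.50 in T6, where 40 were. The direction between soleus and psoas thus differed between the codes, each with at most 2 libraries a muscle. In T4 the only psoas library was replicate 2, and in T6 the only soleus library was replicate 3. The code and these single libraries cannot be told apart here. Soleus replicate 3, the shallowest library at 9114176 counts, was above the gene's median for 43 of the 55 genes, and EDL replicate 3, with 12059090 counts, for 7.

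**Figure D4:**
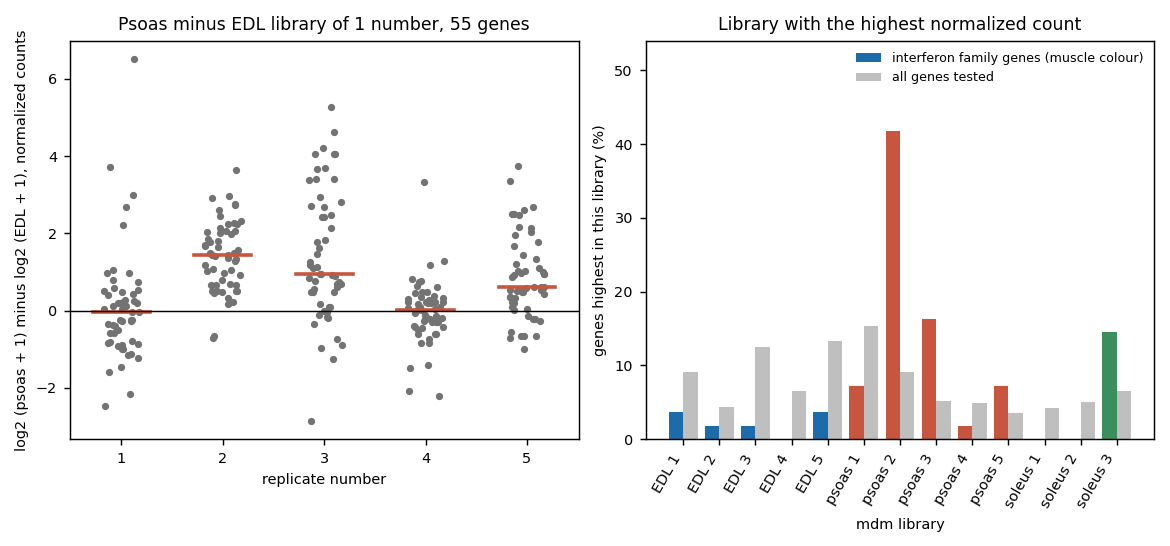
Left, each point is the log2 difference between the psoas and the EDL library of 1 replicate number for 1 of the 55 genes, from normalized counts plus 1, with the median as a line, which is near 0 for replicates 1 and 4 and highest for replicate 2. Right, the bars give the percentage of the 55 genes (in the colour of the muscle) and of all 17069 genes (grey) whose highest normalized count is in that library, 41.8% against 9.16% in psoas replicate 2.

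Of the ligands, Ifnb1, Ifng, Ifnk and the alpha interferons are not analysed here. Of 8 receptor and kinase genes in the tables none was called between psoas and EDL by edgeR, against 4.93% of all genes. At an unadjusted p under 0.05, 2 were higher and 1 lower, against 16.6% and 16.7%. Ifnar2, a chain of the type I receptor, had 196, 119, 123, 191 and 156 in EDL, 225, 300.1, 208, 251 and 213 in psoas and 283, 209 and 229 in soleus, with a log2 fold change of 0.61 (edgeR, adjusted p = 0.0351), and 0.52 without psoas replicate 2 (adjusted p = 0.0962). Of 16 other genes of nucleic acid sensing 15 had a log2 fold change above 0, against 51.3% of all genes, with a median of 0.51, and 1 was called higher, against 2.43%. Ticam1, the adaptor TRIF of endosomal double-stranded RNA sensing, had 16.2, 17.9, 19.9, 18.5 and 13.5 in EDL, 36.8, 45.4, 32.1, 46.03 and 44.8 in psoas and 26.5, 17.1 and 32.7 in soleus, with a log2 fold change of 1.25 ± 0.27 (edgeR, adjusted p = 0.00837). Without psoas replicate 2 its log2 fold change was 1.22 (adjusted p = 0.0237), and none of the 16 was called, where 2.14% of all genes were. Of 8 restraining genes, Socs and Pias proteins and phosphatases among them, 0 were called, against 4.93% of all genes. At an unadjusted p under 0.05, 1 was higher and 1 lower, against 16.6% and 16.7%.

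Antigen presentation genes are induced above all by interferon gamma. Of 17 such genes 3 were called higher in psoas than in EDL by edgeR, Tap1, Tap2 and Cd74, against 2.43% of all genes, and 0 lower. Tap1 and Tap2, the peptide transporter, had log2 fold changes of 1.05 ± 0.23 and 1.02 ± 0.19 (edgeR, adjusted p = 0.00909 and 0.00412). Tap2 had 65.6, 74.01, 75.7, 88.2 and 60.9 in EDL, 126, 162, 163, 156 and 134 in psoas and 105, 104 and 162 in soleus. Cd74, the chaperone of class II molecules, had 106, 184, 73.7, 192 and 62.2 in EDL, 157, 1054, 316, 847 and 464 in psoas and 159.7, 467 and 272 in soleus, with a log2 fold change of 2.18 ± 0.49 (edgeR, adjusted p = 0.0097). Without psoas replicate 2 none of the 17 was called, where 2.14% of all genes were. At an adjusted p under 0.05, 3 were then higher, against 10.9% of all genes in either direction. The log2 fold changes were then 0.85 for Tap1, 0.99 for Tap2 and 1.83 for Cd74. Between soleus and EDL all 17 had a log2 fold change above 0, against 47.4% of all genes, with a median of 0.86. At an unadjusted p under 0.05, 9 were higher, against 7.96% of all genes. None was called there, against 0.978% of all genes. In the fit without psoas replicate 2 H2-K1 was called, against 0.932% of all genes. Of 31 further interferon-stimulated genes 27 had a log2 fold change above 0 between psoas and EDL, against 51.3% of all genes. The median was 0.58, and 0 were called by edgeR, against 4.93% of all genes. At an unadjusted p under 0.05, 12 were higher, against 16.6%, and at an adjusted p under 0.05, 8 were, against 9.06%. Without psoas replicate 2 none had an adjusted p under 0.05, against 10.9% of all genes in either direction.

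In whole muscle, fewer cells of a type and less RNA per cell cannot be told apart, and markers of other cells moved with some libraries. The summed normalized count of 10 macrophage genes was 5335 to 18530 in EDL, 4737 to 19730 in psoas and 6163 to 11380 in soleus. It was highest in psoas replicate 2, at 19730, and next in EDL replicate 4, at 18530, the EDL library above the gene's median for the most interferon family genes, 31 of 55. Psoas replicate 3, above the gene's median for 34 of 55, had a macrophage sum of 7319. Soleus replicate 3, above it for 43, had 11380. The 3 genes of all leukocytes (Ptprc, Coro1a and Laptm5) summed to 275 to 1869 in EDL and 494 to 1859 in psoas. The B cell genes Ms4a1 and Cd79b summed to 5.45 to 20.3 in EDL, 13.7 to 110.0 in psoas and 8.57 to 22.4 in soleus, and were highest in psoas replicate 2. Of 7 T cell genes Cd4 and Thy1 could be used. Cd4 had 9.37, 3.83, 1.99, 3.27 and 4.06 in EDL, 25.1, 43.8, 20.1, 26.9 and 16.6 in psoas and 3.72, 9.28 and 6.88 in soleus, and was called higher in psoas than in EDL, by a log2 fold change of 2.42 ± 0.46 (edgeR, adjusted p = 0.00424). Thy1 had a log2 fold change of -0.38 (adjusted p = 0.511). The 5 neutrophil genes reached 2491 in psoas replicate 5 and at most 746 in EDL. The 4 mesothelial genes summed to 37.8 to 117 in EDL and 223 to 924 in psoas, again highest in psoas replicate 2, and Upk3b was at 0 in EDL 2 to 5. The summed normalized count of 8 muscle fibre genes ran the other way, at 1586000 to 3306000 in EDL, 937500 to 1847000 in psoas and 878100 to 1279000 in soleus. It was highest in EDL replicate 3, and lowest in soleus replicate 3 and psoas replicate 2. Ckm, the muscle creatine kinase, was called lower in psoas than in EDL, by a log2 fold change of -1.67 ± 0.30 (edgeR, adjusted p = 0.00356). Myh4 was also called lower, by -4.18 (edgeR, adjusted p = 0.00223). Of the other fibre genes, Acta1, Myh1 and Myh2 had log2 fold changes below 0 (-0.99, -1.30 and -0.46). Des, Ttn and Myh7 were above 0 (0.56, 0.19 and 0.38). No marker list was at 0 in all libraries. The part of these cells and fibres in the differences between muscles was not tested.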

How the data were processed

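RNA-seq of whole EDL, psoas and soleus muscle from *mdm* mice was analysed from the per-library tables. The authors trimmed low-quality libraries with Trimmomatic 0.32, aligned reads with TopHat2 2.1.1 to GRCm38.p4 and counted them per gene, and deposited raw counts together with a normalized signal, the count divided by a DESeq2 size factor computed with further libraries. The overlap rule and strand setting of the counting are not given in the sources used here, so overlapping and near-identical genes are uncertain. Genes were tested (17069 of 17924) if 3 or more libraries had a deposited normalized count no lower than 10, with edgeR 4.0.16 in R 4.3.3 (TMM scaling, quasi-likelihood fit, two-sided, muscle as the only factor, all 13 libraries, Benjamini-Hochberg adjustment). A gene was called if it changed by more than 1 on the log2 scale with an adjusted p below 0.01. Levels are the deposited normalized counts, and differences between single libraries add a pseudocount of 1. The authors' sequencing run is not in the labels used here and could not be a term. P-values measure the spread between these libraries, which may in part be technical, and limits from counts cover counting error only.

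EDL and psoas libraries of 1 number deviated from their muscle's mean together, with correlations of 0.380, 0.357, 0.283, 0.297 and 0.373, all over 0.1. The tests used them as pairs only in the alternative fits with the replicate number as a block. The main fit, with muscle as the only factor, ignores the pairs. The pair numbered 1 differs in age and code and so is not 1 animal. Correlations with soleus libraries ran from -0.327 to 0.447, and those were not taken as pairs, though the block fit of 13 libraries groups them by number too. Libraries of different numbers were not compared, so no correlation here shows that a number marks 1 animal. Alternatives were DESeq2 1.42.0, limma 3.58.1 on log2(normalized count + 1), other scalings and filters, the label code, age or replicate number in the model, and each library left out. The scripts were tested on simulated data. Replicates of 1 muscle were compared and none was a duplicate. Members, lists and tests were chosen with earlier results of these data known. Genes were named if called, among the 5 smallest adjusted p of a comparison, the highest per exon length of a family, or in a panel of well-known genes, and all other members named with values were chosen after their values were seen. Of the 57 members 2 are not reported here by name, though they remain in counts over all members. Python 3.11.15, numpy 2.4.6, pandas 2.3.3 and matplotlib 3.10.9 were used for summaries and figures.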

Additional observations from a re-analysis of the deposited data

Results flagged for a closer look

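In 8 of 58 groups of 5 libraries, each 1 named gene in EDL or psoas, a library lay far from the other 4. Its gap to the nearest was over 0.71 of the group's range. Chance gives about 2.9 such groups if they are independent and their values normally spread. These counts are not logged and the genes share libraries, so no excess over chance is shown. Of these 8, 3 were in psoas replicate 2: Gbp2 at a normalized count of 807.4 (next 255.3), Irf7 at 141.0 (next 54.04) and Zbp1 at 67.82 (next 19.11). In the other psoas libraries, Ifi27l2a was at 2047 in replicate 5 (next 464.1), Ifi44 at 92.51 in replicate 3 (next 26.17) and Ifitm1 at 206.4 in replicate 1 (next 46.46). In EDL, Isg20l2 was at 227.8 in replicate 2 (next 190.7), and Ifi44 was lowest in replicate 2, at 4.466, where the nearest library held 14.88. Groups of 3 libraries were not examined in this way.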

How the results depend on the processing

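The count of interferon family genes called between psoas and EDL was 0 in the main fit, against 4.93% of all genes. It was also 0 under the other scalings, filters and age as a covariate. DESeq2 called 3 (Irf7, Oasl2 and Rsad2), against 9.29% of all genes. The fit with the label code as a block called 1 (Rsad2), against 6.48%. At an adjusted p under 0.05 with no fold limit 5 were higher, against 9.06%. Leaving out each library in turn gave 0 to 1 (Oasl2 without psoas replicate 5). The share of all genes called was then 2.14% without psoas replicate 2 and 1.86% without EDL replicate 3. The EDL and psoas libraries of 1 number were taken as pairs only with the replicate number as a block, though those numbered 1 are not from 1 animal. With that block the count was 1 (Gbp10, lower) in the 13 libraries. In the EDL and psoas libraries alone it was also 1, against 7.42% of all genes. At an adjusted p under 0.05 (edgeR), 9 of the 55 were higher and 1 lower in that last fit, against 26.2% of all genes in either direction. The count called was 0 in both soleus comparisons. For the 29 named genes 2015 of 2093 alternative fold changes kept direction and side of the threshold, 10 passed it newly and 68 changed sign, in 26 of 87 fold changes. None of those 26 was past the threshold in the main fit, and the cause was not tested. Between psoas and EDL the log2 fold changes that changed sign were with limma Ifi27l2a -0.27, with the replicate block in 13 libraries Ifi27l2a -0.16, with the replicate block in the EDL and psoas libraries Ifi27l2a -0.26. Between soleus and EDL the log2 fold changes that changed sign were with DESeq2 Mx1 0.0712, with age as a covariate Ifitm6 0.14 and Mx1 0.22, with the label code as a block Mx1 0.75 and Oas3 -0.0212, with limma Ifitm6 0.15, Mx1 0.61 and Zbp1 0.51, with the replicate block in 13 libraries Ifi44 -0.0162, Ifit1 -0.36, Ifitm6 0.25 and Oas3 -0.28. Between soleus and psoas the log2 fold changes that changed sign were with age as a covariate Oas1a 0.28, with the label code as a block Irf9 -0.17, with limma Oas1a 0.18, with the replicate block in 13 libraries Oas1a 0.0483, with the stricter filter Irf9 -0.000486. Leaving out 1 library at a time, those between psoas and EDL ran for Ifi27 from -0.19 to 0.56, Ifi27l2a from -1.07 to 0.64, Irf1 from -0.19 to 0.30, Irf9 from -0.0437 to 0.38 and Irgm1 from -0.11 to 0.31. Leaving out 1 library at a time, those between soleus and EDL ran for Bst2 from -0.76 to 1.09, Ifi44 from -0.36 to 0.79, Ifit1 from -0.0394 to 0.44, Ifitm1 from -0.56 to 0.058, Ifitm6 from -0.32 to 0.36, Irf1 from -0.41 to 0.55, Irf4 from -1.92 to 2.36, Irf9 from -0.00957 to 0.41, Mx1 from -1.11 to 0.74, Oas1a from -0.0813 to 0.82, Oas3 from -0.59 to 0.43 and Zbp1 from -0.98 to 0.39. Leaving out 1 library at a time, those between soleus and psoas ran for Ddx58 from -0.36 to 0.12, Irf1 from -0.55 to 0.41, Irf4 from -3.88 to 0.0221, Irf7 from -0.77 to 0.17, Irf9 from -0.17 to 0.24, Isg15 from -0.50 to 0.0502, Isg20l2 from -0.18 to 0.0296, Oas1a from -0.84 to 0.36 and Usp18 from -0.0454 to 0.47. With totals down to 9114176 counts, genes such as Oas3, Isg15 and Zbp1 rest on few reads in the shallow libraries, and a count of 0 there allows up to 3 counts.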
